A study of Mus musculus with 4 samples.

Results

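The genes that encode the proteins of the cytosolic ribosome were followed in 2 tissues, duodenum and spinal cord, each from an IP6K2-/- mouse and a WT littermate. A gene was included when the RefSeq accession of its probe mapped to a symbol of Rpl or Rps followed by a number, or to Rplp0, Rplp1, Rplp2 or Rpsa, and the Rps6k kinases and pseudogenes were left out. This rule gave 86 genes, measured by 173 probes, of 32575 genes or transcript identifiers on the array. They comprised 46 core proteins of the large subunit, 30 core proteins of the small subunit, 9 paralogues with a restricted or less known use and Rps19bp1, which encodes a binding partner of Rps19 and is no ribosomal protein. Rps23 had no matched probe and was not analysed here.

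The 4 arrays came from male mice of 20 weeks, one labelled IP6K2-KO (IP6K2-/-) and one its WT littermate for each tissue. Whether both tissues of a genotype came from the same mouse is not known here. Every mouse had been switched from normal chow to a purified diet (iVid-neo) 1 week earlier and went without food for the last 48 h. The knockout is a constitutive deletion of exon 6 of IP6K2, which encodes the kinase domain, so every cell type lacks the exon. With 1 array in each group no difference could be checked on replicates and none was tested, and genotype cannot be told apart from the individual mouse, the dissection or the hybridization. The error given with a difference (technical SD) is the spread expected from spots of equal brightness on the same 2 arrays and holds no animal-to-animal variation.

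The cytosolic ribosome reads mRNA and joins amino acids, and its 2 subunits each consist of ribosomal RNA and a fixed set of proteins needed in about equal numbers. The mRNAs of these proteins typically begin with a run of pyrimidines at the very 5′ end, the terminal oligopyrimidine (TOP) tract, through which the mTORC1 kinase pathway and the RNA-binding protein LARP1 set their translation and stability. Fasting is known to lower mTORC1 signalling. The intestinal epithelium renews continuously and makes much protein, while mature neurons do not divide.

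Of the core genes, 56 had a RefSeq promoter (mouse build GRCm38.p6), 66 promoters in all. A C followed by at least 7 further pyrimidines, searched on the transcribed strand from 10 bases before to 50 bases after the annotated start, was found in 42 of these 66 promoters (63.6%) and in 16.5% of all 32851 promoters. The motif CCGGAAGT, a form bound by ETS-family factors, was found on either strand of the 300-base promoter in 11 of 66 (16.7%) and in 3.89% of all promoters. A match describes the letters and is not evidence of control. The starts of the genes that the results below turn on are shown from 10 bases before to 20 bases from the annotated start, with capitals for the longest run of at least 8 pyrimidines. The first set holds core genes with such a run, the second core genes and paralogues without one in this window:
Rpl35 (chr2:39005112-39005141, minus strand): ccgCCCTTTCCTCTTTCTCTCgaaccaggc
Rpl34 (chr3:130730318-130730347, minus strand): CTTTTCCTCTTCCggggacggtgctcagag
Rpl27a (chr7:109519185-109519214, plus strand): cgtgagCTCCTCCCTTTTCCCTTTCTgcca
Rpl7a (chr2:26910797-26910826, plus strand): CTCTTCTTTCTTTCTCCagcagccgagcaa
Rpl38 (chr11:114668570-114668599, plus strand): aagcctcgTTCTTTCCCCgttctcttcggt
Rpl39 (chrX:37085203-37085232, minus strand): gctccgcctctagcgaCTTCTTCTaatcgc
Rpl18 (chr7:45718061-45718090, plus strand): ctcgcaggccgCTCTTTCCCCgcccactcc
Rps15a (chr7:118116128-118116157, minus strand): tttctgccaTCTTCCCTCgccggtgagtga
Rps6 (chr4:86857348-86857377, minus strand): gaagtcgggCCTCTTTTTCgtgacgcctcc
Rpl4 (chr9:64173377-64173406, plus strand): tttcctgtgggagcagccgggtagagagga
Rpl5 (chr5:107900518-107900547, plus strand): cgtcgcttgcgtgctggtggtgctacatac
Rpl26 (chr11:68901556-68901585, plus strand): ggcaacttacagaaccggaagtcgcgtgta
Rpl3l (chr17:24727816-24727845, plus strand): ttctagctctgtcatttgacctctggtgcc
Rpl7l1 (chr17:46782637-46782666, minus strand): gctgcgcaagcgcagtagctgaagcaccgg
Among the genes shown, long runs were found at different places in the duodenal genotype comparison. Rpl35 and Rpl34, with runs of 18 and 13 bases, are among its lowest members. Rpl27a and Rpl7a, with 20 and 17 bases, were also below 0 there but nearer it, at -0.49 and -0.22. Run length was not set against the difference over all members. Rpl34 has another annotated start, not printed here, whose window holds no such run. Rpl26, as low as the first pair, has no such run in its window, and Rps6, near 0, has one.

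Levels are given as log2 of the processed signal minus the 75th percentile of its array, with the brightest probe for each gene, so that 1 unit is a 2-fold difference. The arrays differed in brightness: the 75th percentile was 905 and 972 on the WT and KO spinal cord arrays, 323 on the KO duodenum array and 68.0 on the WT duodenum array, where 51.6% of probes were well above background against 66.3% to 77.4% on the others. The WT duodenum array thus stood apart, and both comparisons that use it are given beside the pair of KO arrays, which does not. The tissue labels held: all 17 enterocyte markers were at least 2-fold higher in the duodenum and all 11 neuronal markers lower, in both genotypes. The single Ip6k2 probe read 1.45 higher on the spinal cord array labelled KO and 0.21 lower on the duodenum array labelled KO. Where it lies relative to exon 6 is not known here, so it does not check the labels.

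The core genes were among the brightest on every array. Their median level was 5.27 on the WT and 5.27 on the KO spinal cord array, 8.13 on the WT and 7.24 on the KO duodenum array. All 86 genes were well above background in both spinal cord arrays, 82 on the WT and 83 on the KO duodenum array. Rpl10l and Rpl39l, paralogues known from the testis, and Rpl3l, the paralogue of Rpl3 in heart and skeletal muscle, were not well above background on either duodenum array, and the probe used for Rpl21 was dim on the WT duodenum array.

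**Figure D1:**
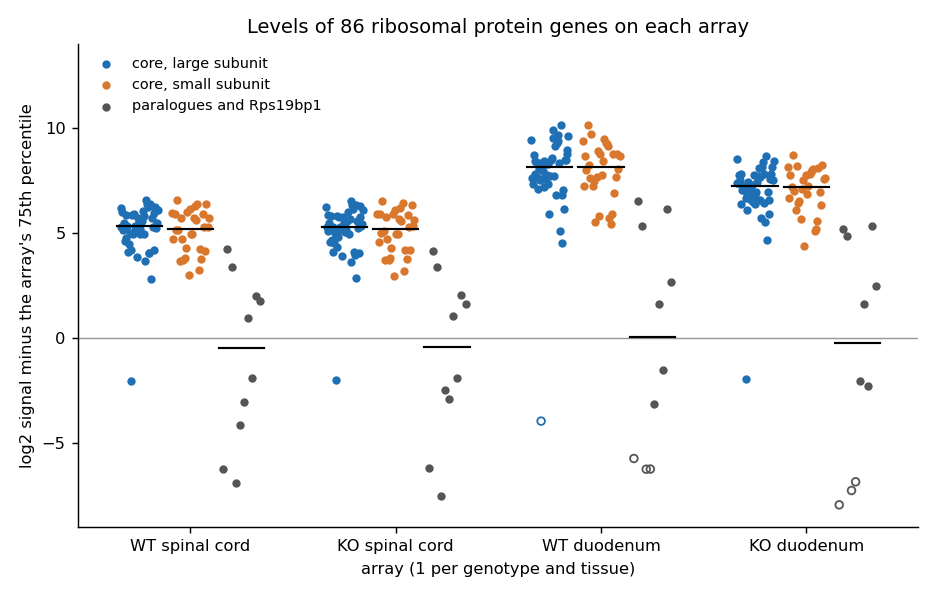
Level of each gene (log2 signal minus the array's 75th percentile, vertical axis) on the 4 arrays, with filled points well above background, open points not, and a black line at the median of each class. The core genes sit higher on both duodenum arrays (medians 8.13 and 7.24) than on both spinal cord arrays (5.27 and 5.27), and the paralogues spread below them.

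The first comparison asked what differed between the genotypes in the duodenum. Relative to the 75th percentile, 73 of the 82 genes measured on both arrays were lower on the array labelled KO and 9 were higher, with a median difference of -0.90 where the median of all genes was -0.12. The shift of the family as a whole did not outlast the choice of normalization, whereas the relation of the differences to the number in the symbol, given below, kept its direction. At least 2-fold lower were 33 genes, where 11.9% of all genes tested were, and at least 2-fold higher were 2 genes, where 7.17% were. The median was -0.90 for the large subunit (18 genes at least 2-fold lower) and -0.97 for the small subunit (14 genes), so the subunits did not part.

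Relative to the median of all genes, the members stood at -0.79 with the 75th percentile, at -0.12 after normexp background correction, at -0.11 after cyclic loess, and at 0.01 and 0.03 after quantile normalization of the 4 arrays and in the table of normalized values that was deposited. With spiked-in control RNAs as the reference the median of all genes moved by 3.0, and the members' own median turned from -0.90 to 2.10. No lower level of ribosomal protein mRNA in the KO-labelled duodenum therefore holds apart from the scaling.

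**Figure D2:**
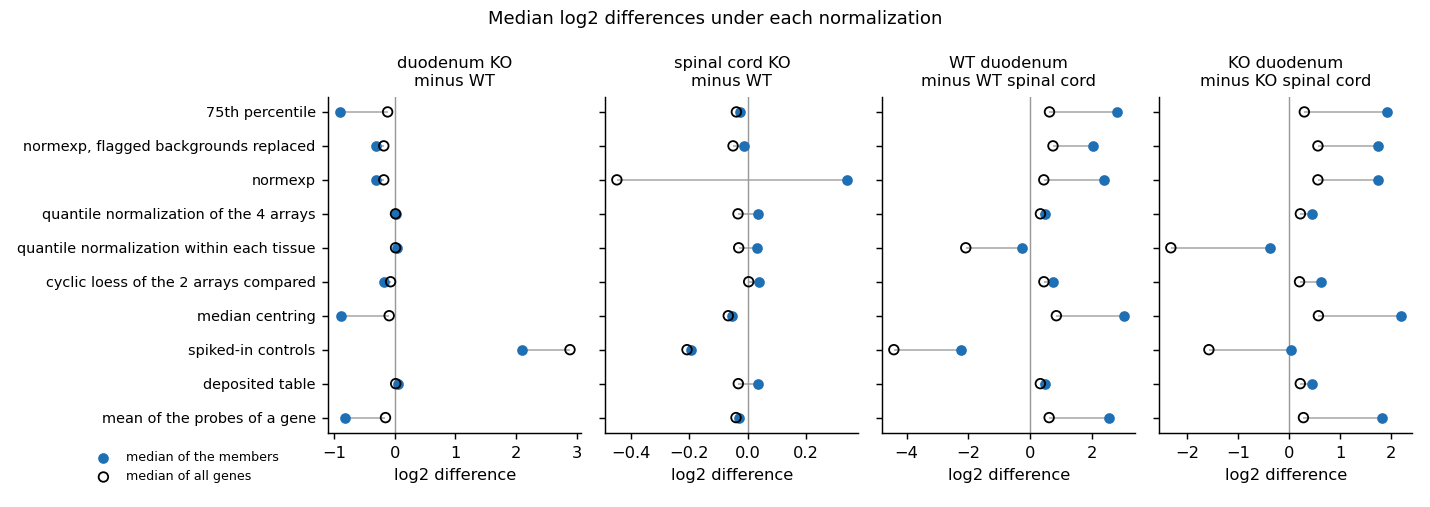
Median log2 difference (horizontal axis) of the ribosomal protein genes (filled) and of all genes (open) in the 4 comparisons under each normalization (rows). In the duodenal genotype comparison the points lie 0.79 apart with the 75th percentile and within 0.03 after quantile normalization and in the deposited table, while in the tissue comparisons the members lie to the right of all genes in every row.

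Within the family the differences spanned far more than the technical SD of 0.07. At the low end were Rpl39 (-1.91), Rpl38 (-1.85), Rpl34 (-1.81), Rpl35 (-1.79) and Rpl26 (-1.72), all proteins of the large subunit; Rpl39 and Rpl26 lie around the exit of the tunnel through which the new protein leaves. The level of Rpl39 was 8.33 on the WT and 6.43 on the KO duodenum array, against 4.03 and 4.07 in the spinal cord. Rpl38, which is known for its part in the translation of Hox mRNAs, was at 9.67 and 7.82 in the duodenum and at 6.22 and 6.16 in the spinal cord. By these scaled levels both genes were thus lower on the KO than on the WT duodenum array, and still above both spinal cord arrays. This order rests on the scaling. Unscaled signals were higher on the KO than on the WT duodenum array, 27790.4 against 21959.4 for Rpl39 and 72931.7 against 55455.5 for Rpl38. The unscaled signal of Rpl38 on the WT spinal cord array was 67620.4, above that on the WT duodenum array.

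At the high end were Rpl3 (0.45) and Rpl4 (0.43), large proteins that bind early to the ribosomal RNA, followed by Rpl5 (0.18), Rpl17 (0.16), Rps19 (0.14) and Rpl6 (0.13). Rpl3 was at 5.91 on the WT and 6.36 on the KO duodenum array, against 5.56 and 5.49 in the spinal cord. Rpl4 was at 5.09 and 5.52 in the duodenum and at 4.04 and 3.93 in the spinal cord. Rpl8, a protein near the catalytic centre, lay nearest the median at -0.90. The gap between Rpl3 and Rpl39 was 2.36, and it was 1.66 to 2.36 under all the alternatives run. Median centring and spiked-in controls, which shift whole arrays, could not change it. The 2 genes were picked as the ends of the core genes in this comparison, so their gap does not speak for the order of the others.

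The order followed the number in the symbol. In the naming of mammalian ribosomal proteins low numbers went broadly to larger proteins. Over 42 core genes of the large subunit Spearman's rho between the number and the difference was -0.71 (Pearson's r = -0.72), and over 29 of the small subunit it was -0.56 (r = -0.54). The median difference was -0.54 for large-subunit genes numbered up to 15 and -1.13 for those above, and -0.64 and -1.17 for the small subunit. Under the alternatives rho lay between -0.73 and -0.55 for the large subunit and between -0.57 and -0.37 for the small. These are descriptions across genes that share 2 hybridizations and are not independent, and the difference also ran with brightness (rho with the level -0.53 and -0.50). In the spinal cord the same rho was 0.19 and -0.14. Between the tissues it was 0.64 and 0.36 on the WT arrays, which share the WT duodenum array with the genotype comparison, and 0.27 and -0.07 on the KO arrays, which do not. The lengths of the mRNAs were not analysed here.

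**Figure D3:**
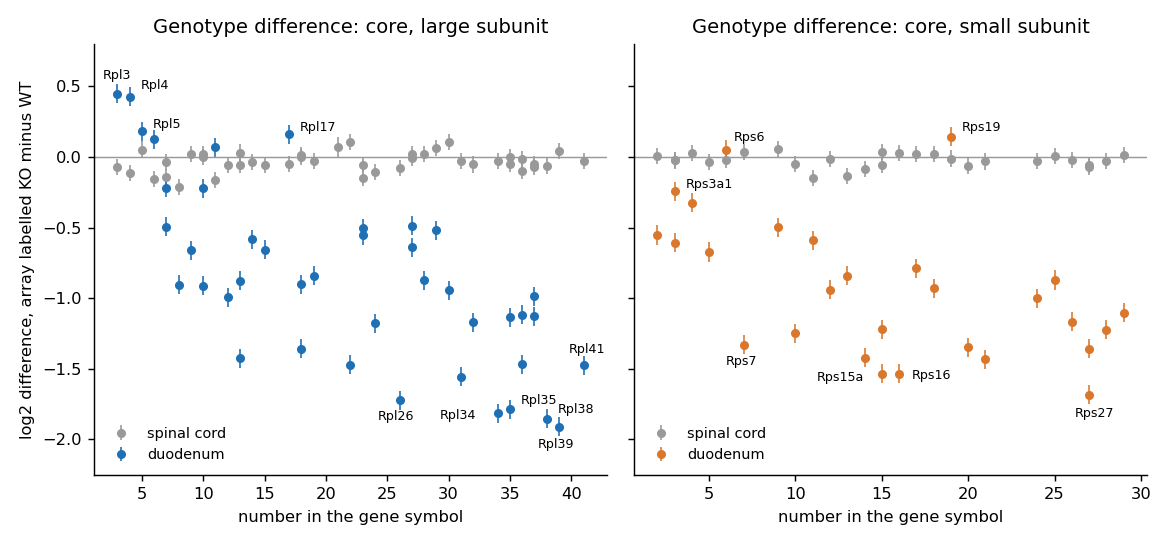
Difference between the array labelled KO and the WT array (log2, vertical axis; bars are the technical SD) against the number in the gene symbol, for core genes of the large (left) and small (right) subunit. In the duodenum (coloured) the values fall from Rpl3 at 0.45 to Rpl39 at -1.91, while in the spinal cord (grey) they stay between -0.22 and 0.11.

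Proteins that work together were alike in one case and not in another. The stalk proteins, which recruit the elongation factors, were at -0.60 for Rplp0, the anchor, -1.43 for Rplp1 and -1.18 for Rplp2. Rpl5 and Rpl11, which enter the ribosome together with the 5S ribosomal RNA and, when free, bind the p53 regulator Mdm2, were at 0.18 and 0.07, both on the higher side. Of the ribosomal parts with other symbols, Fau, which encodes the small-subunit protein eS30 fused to a ubiquitin-like protein, was at -1.79, and Rack1, the kinase scaffold on the small subunit, at -0.53. Both were on the lower side, as most of the family was.

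The paralogues differed among themselves. Rpl7l1, a nucleolar relative of Rpl7, was at 1.1 ± 0.23 (technical SD), the highest value among members measured on both arrays, from a dim probe with levels of -3.13 and -2.04 on the duodenum arrays. After normexp it lay 0.29 below the core median rather than 2.02 above it. Rpl21 was at least 2.02 higher through a probe that was dim on the WT array, but its other probe differed by 0.07. Rpl22l1, a relative of Rpl22, was at -1.33 beside Rpl22 at -1.47; Rpl36al, an expressed retrocopy, at -0.48 beside Rpl36a at -1.12; and Rps27l, a p53 target, at -0.84 beside Rps27 at -1.68. Rps4l was at -0.21 beside Rps4x at -0.32, Rps23rg1 at -0.73 and Rps19bp1 at -0.04. Near-identical copies and processed pseudogenes can share a probe's signal, so values of paralogues are uncertain.

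With the 75th percentile, other parts of the translation machinery did not show the family's median. Of the mitochondrial ribosomal proteins, 77 of 78 were measured on both arrays with a median of -0.04, and 1 was at least 2-fold higher (Mrpl27, 1.56) and 1 lower (Mrps11, -1.15). Of all genes tested, 7.17% were at least 2-fold higher and 11.9% lower. The ribosome biogenesis factors had a median of 0.25, with 9 of 80 at least 2-fold higher, led by Las1l (1.78) and Emg1 (1.69), and 3 lower, Rrp9 (-1.24), Tcof1 (-1.20) and Bysl. The median was 0.05 for 37 initiation factors (2 higher, 1 lower) and -0.16 for 11 elongation and termination factors (1 higher, Abce1 at 1.30). For 15 other mRNAs known to start with a TOP tract, ribosomal parts left out, it was -0.09, and none reached a 2-fold difference. The members' median lay below that of each of these 5 lists under every alternative run, but by amounts that the scaling set: from the mitochondrial ribosomal proteins it differed by -0.86 with the 75th percentile and by -0.057 after quantile normalization of the 4 arrays, and from the other TOP mRNAs by -0.81 and -0.29. Markers of other cells also moved between the duodenum arrays: 10 of 14 pancreatic acinar genes were at least 2-fold lower on the KO-labelled array (median -1.74; 6.34% of the summed signal on the WT and 3.51% on the KO array), as were all 6 blood genes measured on both arrays (median -3.39; 0.443% and 0.0462%). Of 8 smooth muscle genes 7 were lower, 2 of them at least 2-fold (median -0.66; 0.0387% and 0.0397% of the summed signal). The enterocyte list had a median of 0.03. The part of these cells in the result was not tested, and in bulk tissue fewer cells of a type and less RNA per cell cannot be told apart.

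In the spinal cord the genotypes were asked the same question. Here the family barely differed: the median was -0.03 over all 86 genes, where all genes had -0.04, and 67 genes lay within 0.1 of 0. The 76 core genes lay between -0.22 and 0.11. Rpl8 (-0.22), Rpl11 (-0.16), Rpl6 (-0.15) and Rpl23a (-0.15) were the lowest of them and Rpl30 and Rpl22 (both 0.11) the highest, with a technical SD of 0.06. Rpl41, whose product is the smallest ribosomal protein, lay nearest the median at -0.03. Under the alternatives the members' median stayed between -0.20 and 0.04, except after normexp without replacement of flagged backgrounds (0.34).

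The one exception was Rpl3l, the only member at least 2-fold higher, where 2.28% of all genes tested were; no member was at least 2-fold lower, where 0.868% were. Its signal was low, with levels of -4.17 on the WT and -2.50 on the KO array, a difference of 1.67 ± 0.10 (technical SD), while Rpl3 itself differed by -0.07. Relative to the core median it was 1.08 to 1.70 higher under the alternatives, apart from plain normexp, where it was 0.88 lower. Of the 15 skeletal muscle markers, 13 were at least 2-fold higher on the same array, with a median of 4.01 and the highest values for Ckm (4.58) and Acta1 (4.48), and their summed signal was 0.0369% of the WT and 0.153% of the KO array. Other cells' genes were higher there too. All 7 blood genes were, 5 of them at least 2-fold (median 1.21, with 0.264% and 0.422% of the summed signal). So were 10 of 12 lymphocyte and myeloid genes, 7 at least 2-fold (median 1.03, with 0.0646% and 0.127%). Of 10 genes of crypt stem and dividing cells 6 were higher, 4 at least 2-fold (median 0.74, with 0.00817% and 0.00943%). The part of RNA from muscle or these other cells in the value of Rpl3l was not tested. Rpl39l was at -0.60 ± 0.34 (technical SD) from levels of -6.93 and -7.54 near background, and Rpl10l at 0.05. The other paralogues lay between -0.14 and 0.13. Rplp0, Rplp1 and Rplp2 were at 0.09, -0.03 and 0.02, and Fau and Rack1 at -0.10 and 0.01. No mitochondrial ribosomal protein, biogenesis factor, initiation or elongation factor reached a 2-fold difference in either direction.

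Across the members the genotype differences of the duodenum and of the spinal cord, which share no array, had a rho of 0.05 (82 genes). The order of the genes in the duodenum was therefore not that in the spinal cord. Their spread also differed: the core genes measured on both arrays ran from -1.91 to 0.45 in the duodenum and from -0.22 to 0.11 in the spinal cord.

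The second question was how the tissues differ. The ribosomal protein genes were higher in the duodenum than in the spinal cord in both genotypes. On the WT arrays 81 of 82 genes were higher, with a median of 2.82 where all genes had 0.63. On the KO arrays 82 of 83 were higher, with a median of 1.91 where all genes had 0.30. At least 2-fold higher were 77 genes on the WT arrays, where 30.2% of all genes tested were, and 76 on the KO arrays, where 30.3% were. Only Rpl21, through its dim probe, was at least 2-fold lower on the WT arrays (23.1% of all genes), and only Rpl3l on the KO arrays (25.4%).

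Relative to the median of all genes the members were higher under every setting, by 0.14 to 2.19 on the WT arrays and 0.22 to 1.94 on the KO arrays, with the smallest values after quantile normalization of the 4 arrays and in the deposited table. The members' own median turned negative after quantile normalization within each tissue (-0.27 on the WT and -0.37 on the KO arrays), where the median of all genes moved by -2.71 and -2.61, and with spiked-in controls on the WT arrays (-2.22), where it moved by -5.04. The family thus ranked higher in the duodenum in all settings, by an amount that the scaling sets.

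The highest values on the WT arrays were those of Rpl39 (4.30), Rps27l (4.14), Rps16 (4.0), Rps15a (3.98) and Rpl18 (3.93). On the KO arrays they were Rps27l (3.26), Rpl18 (3.03), Rps18 (2.82), Rplp0 (2.80) and Rps2 (2.80). Rps27l and Rpl18 were thus among the 5 highest in both genotypes. Rps27l was at 2.01 and 2.05 on the WT and KO spinal cord arrays and at 6.15 and 5.31 on the duodenum arrays. Its parent gene Rps27 differed by 3.74 and 2.12.

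At the low end were paralogues, Rps19bp1 and the core genes Rpl3 and Rpl21. Rpl3 was 0.35 higher in the WT and 0.87 in the KO duodenum, and Rps4l 0.93 and 0.86, while Rps4x was 2.16 and 1.81 higher. Rps19bp1 was at 0.69 and 0.53. Rpl21, whose probe was dim on the WT duodenum array, was at 0.051 on the KO arrays. Rps23rg1, a retrogene of Rps23, was at 0.37 and -0.37, and Rpl7l1 at -0.08 and 0.89, so these 2 dim genes had no common direction. Rpl3l fell the other way, at least 3.72 lower in the KO duodenum than in the KO spinal cord.

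Over the 82 genes measured in both pairs, which share no array, the WT and KO tissue differences had a rho of 0.78 (r = 0.80). The points share the probes and the 2 tissues, and the value describes these 4 arrays. The stalk proteins were closely alike on the WT arrays (3.48 to 3.53) and less so on the KO arrays (2.09 to 2.80), and Rpl5 and Rpl11 were lower than most of the family, at 1.69 and 1.31 on the WT and 1.82 and 1.54 on the KO arrays. Fau was at 3.71 on the WT and 2.02 on the KO arrays, and Rack1 at 3.29 and 2.75.

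**Figure D4:**
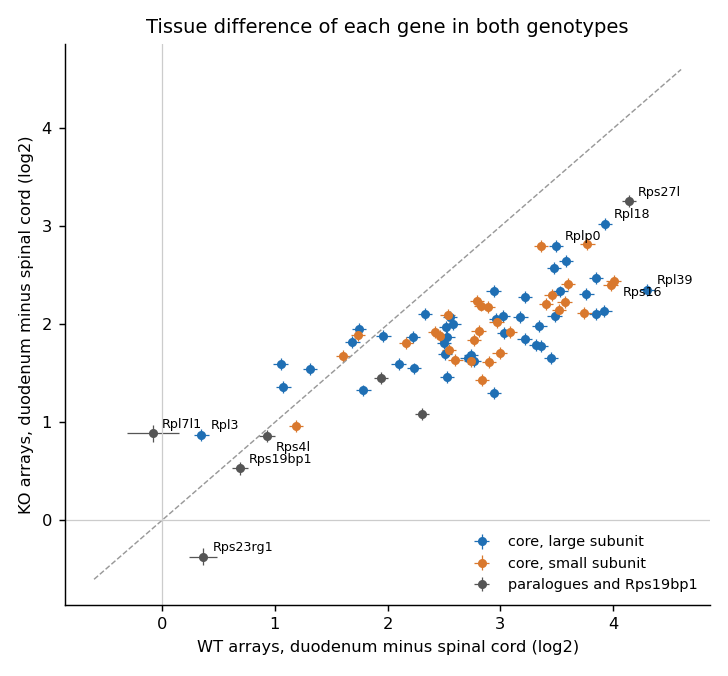
Duodenum minus spinal cord (log2) of each gene on the WT arrays (horizontal) and the KO arrays (vertical), with bars for the technical SD and a dashed line where both are equal. Most core genes lie below the line, with medians of 2.89 on the WT and 1.93 on the KO arrays, and Rps27l and Rpl18 are high in both.

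The medians of lists of neighbouring function were lower than the members' under all the alternatives run. For the counts that follow, 30.2% and 30.3% of all genes tested were at least 2-fold higher on the WT and KO arrays. At least 2-fold lower were 23.1% and 25.4%. The 78 mitochondrial ribosomal proteins had medians of 0.64 on the WT and 0.48 on the KO arrays, with 25 and 16 at least 2-fold higher and 7 and 2 lower. The biogenesis factors were at -0.17 and 0.00, with 14 and 11 at least 2-fold higher and 21 and 11 lower. The 15 other TOP mRNAs, ribosomal parts left out, were at 1.45 and 1.27, with 10 and 9 at least 2-fold higher. Tpt1, a small growth-related protein, was at 2.73 and 2.06, Eif4b, which helps to unwind mRNA, at 2.30 and 2.70, and Hnrnpa1, a splicing regulator, at -1.19 and -0.77.

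For several genes the tissue difference depended on the probe. Of 49 genes with more than 1 probe measured on both WT arrays, 12 had probes that differed by at least 1 in the tissue difference, and of 50 on the KO arrays 8 had. In the spinal cord genotype comparison none of 51 did. The largest stable case was Rps24, whose pre-mRNA is alternatively spliced near its 3′ end. The probe for transcript NM_011297 was at -1.95 on the WT and -2.70 on the KO arrays, whereas those for NM_207635 and NM_207634 were at 2.60 and 2.79 on the WT and at 1.63 and 1.80 on the KO arrays. The first probe gave signals of 62207 and 61938 on the spinal cord arrays and 1210 and 3162 on the duodenum arrays. In scaled values the first probe was thus higher in the spinal cord and the other 2 higher in the duodenum, in both genotypes. On the WT arrays the direction of the other 2 rests on the scaling. The 75th percentile taken off was 905 in the WT spinal cord and 68.0 in the WT duodenum. On the KO arrays it was 972 and 323, and most of their difference rests on it. The accessions are those of the array's annotation, and which transcripts the probes read was not checked on their sequences. The gap of 4.74 on the WT arrays was 5.21 after quantile normalization and 4.98 after cyclic loess.

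Rpl22, Rpl27a and Rpl15 each had 1 probe whose scaled difference went against that of the brightest one. For Rpl22 the probes were at 3.35 and -1.58 on the WT and 1.78 and -0.74 on the KO arrays. For Rpl27a they were at 2.55 and -1.69 on the WT and 2.08 and -0.74 on the KO arrays, and for Rpl15 at 2.94 and -1.34, and 2.34 and -1.17. The WT gaps stayed at 3.37, 2.48 and 2.38 after quantile normalization. A further probe of Rpl27a, at 2.46 and 2.0, lay beside its brightest one. All probes of each of these genes carry the same RefSeq accession, so which transcripts they read is not known here. The gap of Rpsa (2.80), in contrast, became -0.05 after quantile normalization.

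In the duodenal genotype comparison 7 of 49 genes had probes at least 1 apart. For Rpl23 a probe spotted 10 times was at 1.73 and the brightest probe at -0.55, for Rpl22 the probes were at 0.68 and -1.47, and for Rps3 at -0.61 and -1.79. The gap of Rps3, a DNA repair and mRNA entry protein, was 1.18, and 1.26 after quantile normalization. In all, 13 of the 49 genes had probes on both sides of 0, so that their direction on the KO-labelled array depended on the probe: Rpl23, Rpl22, Rpl31, Rpl27a, Rpsa, Rpl30, Rpl17, Rps25, Rpl6, Rpl15, Rpl14, Rpl10a and Rpl7a. Among them are Rpl17 (probes from -0.72 to 0.23) and Rpl6 (from -0.65 to 0.20), named above at the high end. The values given for a gene are those of its brightest probe.

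**Figure D5:**
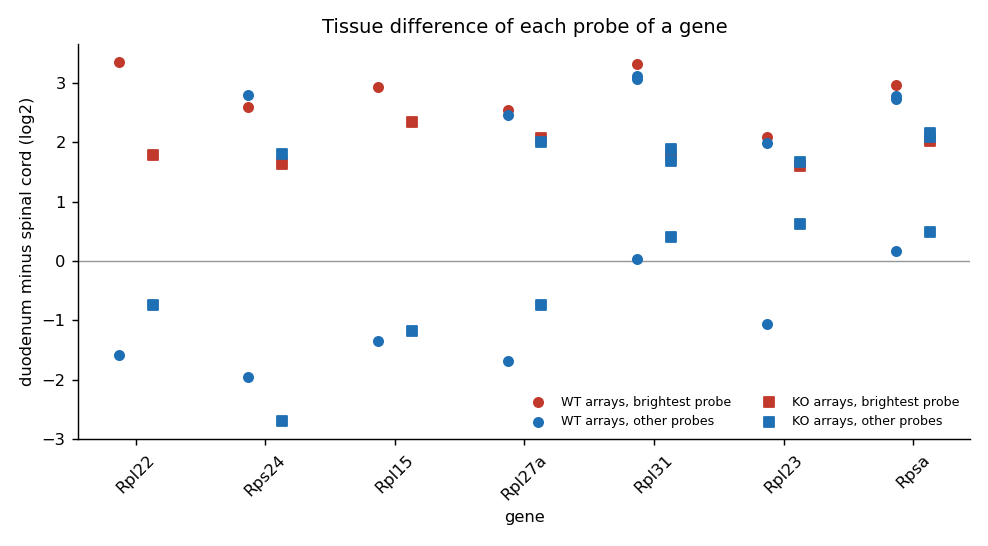
Duodenum minus spinal cord (log2, vertical axis) of every probe of the 7 genes whose probes differed by at least 2 on the WT arrays, with circles for the WT and squares for the KO arrays and the brightest probe in red. Probes of Rps24, Rpl22, Rpl27a and Rpl15 lie on both sides of 0 in both genotypes, from 3.35 to -1.58 for Rpl22 on the WT arrays.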

How the data were processed

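RNA from 1 spinal cord and 1 duodenum of each genotype was hybridized by the authors to 1-colour Agilent arrays (Cy3). The authors deposited scanner output of Agilent Feature Extraction 11.5.1.1 (per the submitters' processing notes), whose processed signals are intensities with the background subtracted and the surface trend removed, and a table of normalized log2 values, 1 column per array, which was used only as an alternative. How the authors normalized it is not given in the sources used here; its column medians lay between 5.11 and 5.12, its scale is log2, and the differences of the members' probes lay a median of 0.00196 to 0.00838 from those after quantile normalization of the 4 arrays.

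Control spots and outlier spots (89 to 133 of 43020 per array) were left out, no spot was saturated, and spots of a probe were averaged, giving 39429 probes. Here log2 of the intensity minus the array's 75th percentile was the main value. RefSeq accessions were matched to symbols for 26575 of 28109 probes that had one. The brightest probe stood for a gene. A probe not well above background on 1 array gave only a bound: the dim side was set to the lowest value well above background on its array, or to the probe's own where that was higher. The technical SD came from the 50 of 399 probes spotted 10 times that were nearest in brightness. Background shares count all genes with a probe well above background on 1 or both arrays. With 1 array per group nothing was tested; the number of arrays limits the precision.

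Alternatives were normexp (offset 50) with and without replacement of flagged backgrounds, quantile normalization, cyclic loess (limma 3.58.1, R 4.3.3), median centring, spiked-in controls, the table of normalized values, averaging all probes of a gene, other filters and a 1.5-fold threshold. Python 3.11.15, pandas 2.3.3, numpy 2.4.6 and scipy 1.17.1 were used. The counts and bounds were tested on simulated data. The members, lists and rules were chosen with earlier results of these data known. Named are all paralogues, stalk and 5S proteins, the 5 largest and 5 smallest differences of each comparison, dim members, the members nearest the median and at most 2 genes at each end of other lists; genes with probes that disagree, Rps6, Rps19, Rpl6, the parents of paralogues, Rps3 and Rpsa were added after their values were seen. Of the members and lists, 2 genes are not reported here by name or shown singly in plots, and they stay in the counts and medians.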

Additional observations from a re-analysis of the deposited data

Results flagged for a closer look

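Rpl4, a core protein of the large subunit, moved in opposite directions between the arrays labelled KO and WT by more than 2 technical SDs in each tissue: its duodenal difference was 0.43 and its spinal cord difference -0.12, a gap of 0.54. With 1 array for each genotype and tissue this gap was not tested. The spinal cord difference is small, and signs in that comparison depend on the processing. Of 38 named members 23 changed sign after normexp without replacement of flagged backgrounds, and 18 with spiked-in controls. Under the other alternatives between 2 and 8 did.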

How the results depend on the processing

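In these sentences a median is that of the members' log2 differences, and a 2-fold count is a number of members. Shares of all genes at least 2-fold apart are given for the main values only. They were 11.9% lower and 7.17% higher in the duodenal genotype comparison, and 0.868% and 2.28% in the spinal cord. Whether a count under an alternative, or at 1.5-fold, is more or less than the share of all genes is therefore not known here. In the duodenal genotype comparison the median (-0.90) was -0.30 after normexp with or without replacement of flagged backgrounds, 0.028 after quantile normalization of the 4 arrays, 0.031 within each tissue, -0.18 after cyclic loess, 2.10 with spiked-in controls, 0.049 in the deposited table and -0.81 with the mean of a gene's probes. The 33 members at least 2-fold lower became 6 after normexp in either form, 0 after quantile normalization of the 4 arrays, 2 within each tissue, 3 after cyclic loess, 0 with spiked-in controls and in the deposited table, and 57 at 1.5-fold. The 2 at least 2-fold higher became 1 after cyclic loess or with both arrays required well above background, and 83 with spiked-in controls. In the spinal cord the median (-0.03) was 0.34 after normexp, 0.034 after quantile normalization of the 4 arrays, 0.030 within each tissue, 0.037 after cyclic loess, 0.035 in the deposited table and -0.20 with spiked-in controls. There the member at least 2-fold higher dropped to 0 after normexp, and those lower rose from 0 to 3 after normexp and to 1 at 1.5-fold.

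Between the tissues, on the WT and then the KO arrays (2.82 and 1.91), the median was 2.02 and 1.73 after normexp with flagged backgrounds replaced, 2.39 and 1.73 after normexp, 0.48 and 0.45 after quantile normalization of the 4 arrays, -0.27 and -0.37 within each tissue, 0.73 and 0.62 after cyclic loess, 3.04 and 2.19 after median centring, -2.22 and 0.047 with spiked-in controls, 0.47 and 0.45 in the deposited table, and 2.54 and 1.81 with the mean of a gene's probes. The cause of these moves was not tested; spiked-in scaling shifts all genes of an array alike by its construction.

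Single named members were followed relative to the core median, which a shift of the whole array cannot move. Median centring and spiked-in controls only shift whole arrays, so their values could not change side, but they are included in the counts of this paragraph. Of 279 values that stood at least 2-fold from the core median, 18 changed side under an alternative. Rpl7l1 in the duodenal genotype comparison was at -0.28 after normexp with flagged backgrounds replaced and -0.29 after normexp, and Rpl3l in the spinal cord at -0.88 after normexp. In the WT tissue comparison, after quantile normalization of the 4 arrays and in the deposited table, Rpl5 was at 0.31 and 0.33, Rps19bp1 at 0.00906 and 0.023, Rps23rg1 at 0.018 and 0.030 (0.00391 after cyclic loess) and Rps4l at 0.018 and 0.032, and Rps15a was at -1.33 with the mean of its probes. In the KO tissue comparison, in the same order, Rpl7l1 was at 0.66 and 0.66 (0.42 after cyclic loess) and Rps4l at 0.14 and 0.14. Of 990 values nearer the core median, 113 changed side. No paired analysis was possible because there was a single array in every group. Signal over background in the duodenum limits Rpl3l, Rpl10l and Rpl39l, dim on both arrays, and Rpl21, dim on the WT array, to bounds or no value. The relation to the symbol number, the gaps between probes of a gene and the medians of the other translation lists were followed through the alternatives after the data were seen.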
